A study of Mus musculus with 87 samples.

Results

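The 10 apolipoprotein genes described here are Apoa1, Apoa2, Apoa4, Apoa5, Apob, Apoc1, Apoc2, Apoc3, Apoe and Apom. They were chosen by name from the 37991 genes of the deposited table, each as its protein-coding row, and all 10 were above the detection threshold (log2 RPKM over -1.5 in at least 1 library), as were 15396 genes in all. After partial hepatectomy (PH) the abundant Apoa2, Apoe and Apoc1 mRNAs fell and the scarcer Apoa4 and Apoc2 mRNAs rose relative to sham-operated livers. Apoa4 had the widest range of group means, 30.5-fold, and Apoc3 the narrowest, 1.86-fold.

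The study removed most of the liver of C57BL/6 male mice aged 12 to 14 weeks (PH, groups X), or only opened the abdomen (sham, groups S), and compared them with livers of unoperated mice (groups C). All mice lived in a light-dark cycle with food offered only in the dark, and both operations were done at the same morning hour under isoflurane. The numbers in the group names are hours after surgery (X10, S10) or weeks (X1W, X4W). C0 and C4 are unoperated mice killed at the hour of surgery and 4 h later, and C4W is the unoperated group for X4W. Each library came from poly(A) RNA of 1 liver, and 80 libraries in 19 groups were analysed: 9 C0, 3 C4, 2 C4W, 6 S1, 5 S4, 3 each of S10, S20 and S48, 6 X1, 3 X4, 6 X10, 6 X20, 3 X28, 6 X36, 3 X44, 5 X48, 3 X72, 3 X1W and 2 X4W. Per the study's supplement the livers were collected in 3 periods. C0 came from all of them, S1, S4, X1, X4, X10, X20 and X36 from the first and second, S48, X28, X44, X48, X72 and X1W from the first alone, S10, S20, C4W and X4W from the second alone, and C4 from the third alone. The labels do not give the period of a liver, so fits that use it took the replicate numbers to follow the order of the periods (C0 replicates 7 to 9 being the third). The mice carried no transgene or deletion that the labels name. Whole liver was used, so fewer cells of a type and less RNA per cell cannot be told apart.

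Lipoproteins carry cholesterol and triglycerides through the blood, and apolipoproteins are the proteins on their surface. The liver makes most of them. Apolipoprotein B is the structural protein of very low density lipoproteins, whereas apolipoproteins A-I and A-II are the main proteins of high density lipoproteins. The C apolipoproteins and apolipoprotein A-V act on lipoprotein lipase, the enzyme that releases fatty acids from triglycerides, and apolipoprotein E binds the receptors that take up lipoprotein remnants. Apolipoprotein A-IV, best known from the intestine, is also made in rodent liver, and apolipoprotein M carries the lipid mediator sphingosine-1-phosphate on high density lipoproteins.

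On mouse assembly mm9, the build of the files, 7 of the genes lie in 2 clusters. Apoc2, Apoc1 and Apoe lie within 27.6 kb of chromosome 7 (20256928 to 20284515), all on the minus strand. Apoa1, Apoc3, Apoa4 and Apoa5 lie within 43.3 kb of chromosome 9 (46036663 to 46080002), with Apoc3 on the minus strand and the other 3 on the plus strand. Apoa2 lies on chromosome 1 (173155185 to 173156510), Apob on chromosome 12 (7984454 to 8023641) and Apom on chromosome 17 (35265942 to 35268995). Exon length runs from 537 bp (Apoa2 and Apoc1) to 13934 bp (Apob). Apoc2 shares 112 bp of exon, 12.0% of its exon length, with the more abundant Apoc4 on the same strand, which leaves its values uncertain. Apoa4 shares 632 bp with Gm10680 on the opposite strand, which the stranded counting keeps apart.

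The 150 bases before the annotated start of 5 members are printed because these genes carry the main differences: Apoa4 and Apoc2 rose after PH, and Apoa2, Apoe and Apoc1 fell. They were read from the mm9 genome upstream of the first transcript model of each gene (GENCODE), 5′ to 3′ on the gene's strand, with matches to the motifs searched in capitals. The Apoc2 window lies within the span of a longer model of that gene, and the last bases of the Apoa2 window lie in the first exon of another of its transcripts.
Apoa4 (chr9:46048629-46048778, plus strand): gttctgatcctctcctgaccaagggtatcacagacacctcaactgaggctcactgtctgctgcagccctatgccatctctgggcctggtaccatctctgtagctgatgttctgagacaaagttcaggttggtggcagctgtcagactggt
Apoc2 (chr7:20263291-20263440, minus strand): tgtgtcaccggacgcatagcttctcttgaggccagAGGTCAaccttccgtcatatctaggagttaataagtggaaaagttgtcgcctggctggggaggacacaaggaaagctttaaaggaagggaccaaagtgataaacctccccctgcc
Apoc1 (chr7:20278008-20278157, minus strand): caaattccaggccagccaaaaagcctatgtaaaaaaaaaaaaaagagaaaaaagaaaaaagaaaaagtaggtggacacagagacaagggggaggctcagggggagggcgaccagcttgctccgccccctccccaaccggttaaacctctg
Apoe (chr7:20284516-20284665, minus strand): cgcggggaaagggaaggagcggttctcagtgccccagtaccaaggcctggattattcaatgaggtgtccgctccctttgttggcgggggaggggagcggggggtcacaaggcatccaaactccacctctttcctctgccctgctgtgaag
Apoa2 (chr1:173155063-173155212, plus strand): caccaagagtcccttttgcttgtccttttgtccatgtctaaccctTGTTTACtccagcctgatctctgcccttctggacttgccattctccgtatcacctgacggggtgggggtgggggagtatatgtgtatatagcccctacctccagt

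These 5 motifs were searched on both strands in such windows of all 10 members: AGGTCA, the core recognised by many nuclear receptors, CAAAGTCCA, a site of HNF4A, GTAAACA, the forkhead core, TATAAA, and TGACGT, the core of cyclic AMP response elements. AGGTCA was found in 2 members, Apoc2 (115 to 110 bases before the start) and Apoc3, against 7.32% of 22372 windows of protein-coding genes. GTAAACA was found in reverse in Apoa2 (105 to 99 bases before the start), against 1.53% of windows. TATAAA was found in Apoa5, Apob and Apoc3, against 7.83% of windows. The other motifs, CAAAGTCCA (0.259% of windows) and TGACGT (5.78% of windows), had no match in the 10 windows. The windows printed for Apoa4, Apoc1 and Apoe held none of the 5 motifs. The GC content of the member windows ran from 36% (Apom) to 64.7% (Apoa1), with a mean of 56.8% over all windows.

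Values are RPKM (reads scaled to exon length and to the library's total), which can be compared between genes because they are per length. Differences were tested with limma on log2(RPKM + 0.25) over all 15396 genes, with Benjamini-Hochberg adjusted p-values, and a gene was counted as higher or lower (it "passed") when its adjusted p was under 0.05 and its log2 difference was over 0.5 in size. The mice are separate animals, although 3 were operated and killed at a time. Groups without overlap were common among all genes. PH and sham livers did not overlap for 21.6% of all genes at 4 h and 17.6% at 10 h. The share was 16.8% at 20 h and 45.9% at 48 h. It was 52.5% for S4 against C4, 51.8% for X28 against C4 and 27% for X44 against X20. Against C0 it was 33.5% for S10, 15.1% for S20, 11.2% for S48, 33.6% for X72 and 19.7% for X1W. Depth came to 12.2 M to 48.8 M reads in 79 libraries and could not be resolved in the other, X28 replicate 2. The lowest member value stood for about 1242 reads. The summed level of 8 hepatocyte markers moved with the groups, at 41556 to 51435 RPKM in C0 and 43341 to 46371 RPKM in C4. It was 25321 to 27494 RPKM in X28, and 29844 to 35236 RPKM in X48 against 35068 to 43193 RPKM in S48. In X72 it was 45649 to 56660 RPKM. Its part in the results was not tested. The enterocyte markers Sis and Alpi were listed at 0 in all 80 libraries, while Fabp2 of the same list was at 26.3 RPKM or more.

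The dependence of the libraries on transcript length moved with the groups. Fits with this trend removed lost 18 of 81 calls, and several are given below. The cause of the trend was not tested. Over well-expressed genes (mean log2 RPKM over 3) the deviation of a library from the mean changed by -0.220 to -0.173 (log2) per doubling of exon length in C0 replicates 7 to 9, by -0.205 to -0.152 in C4, by -0.0953 to -0.00629 in the other 6 C0 libraries, and by -0.0830 to 0.161 in the other 68 libraries. Short transcripts therefore stood higher, and long ones lower, in C4 and in C0 replicates 7 to 9 than elsewhere, so comparisons with unoperated livers are given with and without these 3 C0 libraries where a call depended on them. The ranges of the sham and PH libraries overlapped (-0.0830 to 0.0323 and -0.0535 to 0.161). C0 replicate 8 also had the highest summed level of 9 macrophage markers (219 RPKM, 14.7 to 43.8 RPKM in the other C0 libraries) and of the neutrophil markers (49.1 RPKM, 0.356 to 4.88 RPKM).

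**Figure D1:**
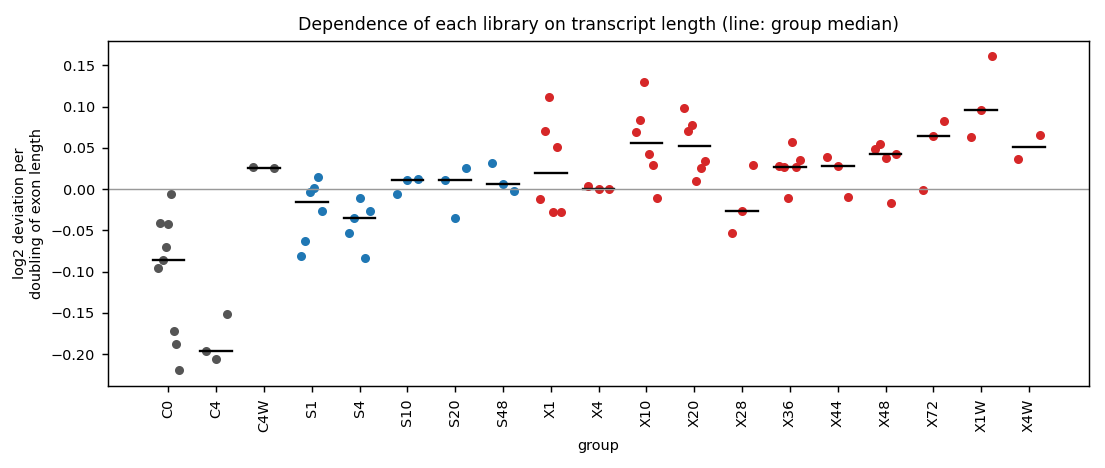
Slope of each library's deviations on log2 exon length over well-expressed genes, by group (points: libraries; line: group median). C4 and C0 replicates 7 to 9 lie between -0.220 and -0.152, below every other library.

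In unoperated livers the members fell into 2 tiers. In the 9 C0 livers Apoa2 stood at 7857 to 13943 (median 9943) RPKM, Apoa1 at 5594 to 9301 (median 6825), Apoe at 4781 to 7947 (median 5743) and Apoc1 at 3858 to 9323 (median 5062) RPKM. Each of these overlapped its neighbour in the order, and they ranked 10th, 15th, 19th and 21st of all detected genes by mean log2 RPKM. Apoc3 came next and overlapped neither neighbour, at 938 to 1248 (median 1138) RPKM. In the lower tier Apoa5 stood at 213 to 388 (median 316) RPKM, Apob at 157 to 370.1 (median 278), Apoc2 at 114 to 183 (median 170.2), Apom at 68.4 to 226 (median 155) and Apoa4 at 49.0 to 118 (median 89.4) RPKM. Neighbours in this tier overlapped.

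**Figure D2:**
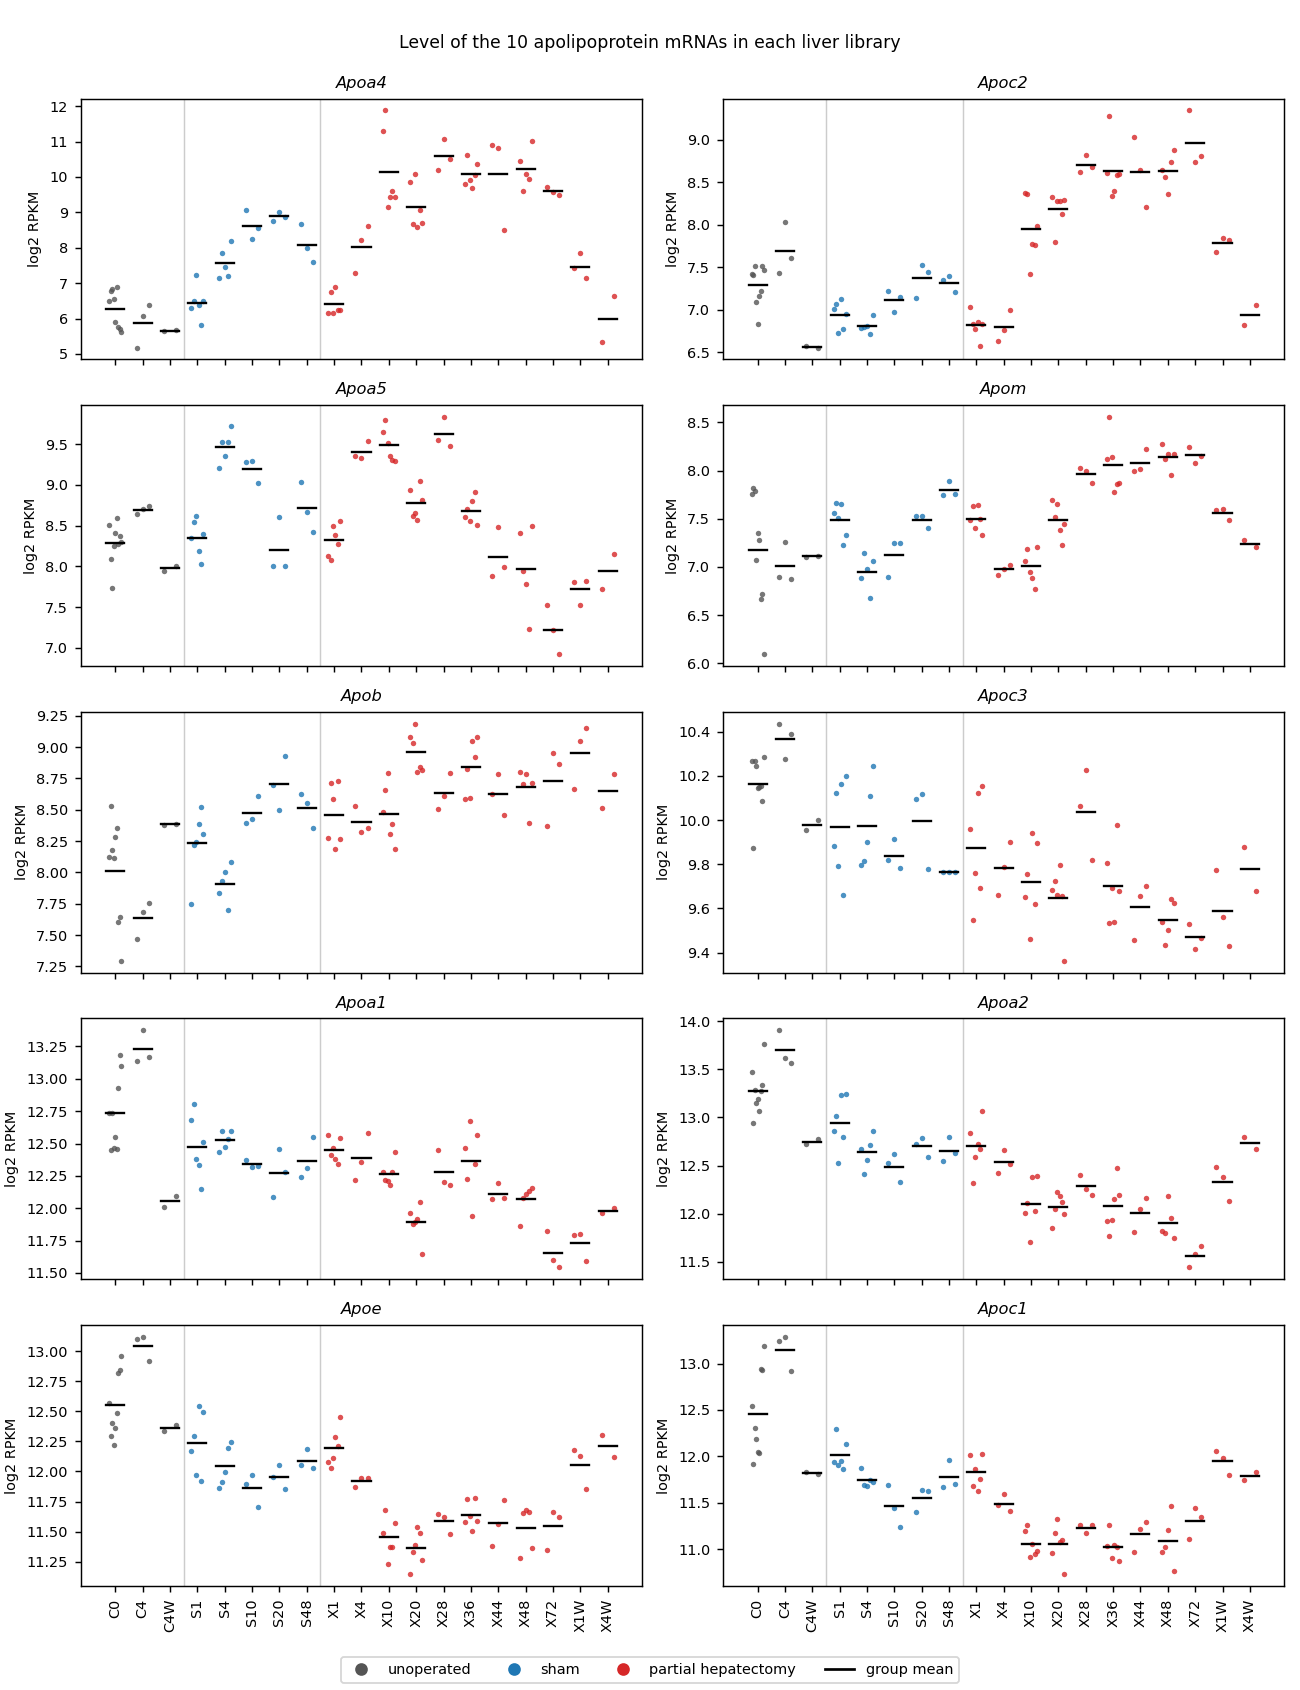
Log2 RPKM of the 10 members in each of the 80 libraries (points) with group means (lines), for unoperated (grey), sham (blue) and PH (red) livers. The highest group mean is that of X28 for Apoa4 and of X72 for Apoc2, and the lowest is that of X20 for Apoe and of X36 for Apoc1.

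Apoa4 was the member that differed most. S10 livers held 537, 302 and 378 RPKM and the 6 X10 livers 572 to 3763 (median 734) RPKM. Every X10 liver was above every S10 liver, but X10 replicates 1 and 2, at 2493 and 3763 RPKM, stood far above the other 4, which were at 572 to 773 RPKM. Apoa4 was 2.84-fold higher after PH by the limma fit (log2 difference 1.51, SE 0.42, adjusted p = 0.0114). Leaving out S10 replicate 2 or 3 took the adjusted p to 0.0962 or 0.0552, and a fit on these groups alone took it to 0.173. S10 came from the second period alone, and against X10 replicates 4 to 6 the difference was 0.86 and did not pass (adjusted p = 0.227). At 48 h, S48 livers held 408, 253 and 194 RPKM and X48 livers 1406, 773, 1092, 987 and 2058 RPKM. The groups were again apart, with Apoa4 4.39-fold higher after PH (log2 difference 2.13, SE 0.44, adjusted p = 5.3e-05), and no alternative ended this call.

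At 20 h the Apoa4 levels of PH and sham livers overlapped. S20 livers held 436, 519 and 467 RPKM and X20 livers 384 to 1094 (median 476) RPKM (log2 difference 0.28, SE 0.42, adjusted p = 0.727). The PH-sham difference was larger at 48 h than at 20 h by 1.86 on the log2 scale (SE 0.61, limma adjusted p = 0.0271), but this adjusted p rose above 0.05 when any of S20 replicate 2 or 3, S48 replicate 2 or 3 or X48 replicate 5 was left out (0.0524 to 0.0923), without a filter (0.07), with a common median (0.0905) and with the length trend removed (0.0728). At 1 h and 4 h the log2 differences were -0.05 and 0.46, and neither passed.

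Sham surgery alone was also followed by higher Apoa4. The S4 livers held 142, 231, 176, 147 and 294 RPKM against 36.3, 67.4 and 83.2 RPKM in C4 (log2 difference 1.69, SE 0.44, adjusted p = 0.000715). S4 and C4 came from different periods, and with the period as a term the difference was 0.78 and did not pass (adjusted p = 0.290). The S4 columns were matched to the labels by number alone, which leaves their identity uncertain. Against C0, the log2 difference was 2.34 in S10, 2.60 in S20 and 1.80 in S48, all past the test, and 0.18 in S1, which did not pass. No sham liver at 10 h to 48 h overlapped the C0 range. S10 and S20 were killed at another hour of the day than C0, as were S1, X36 and X44, and in comparisons of these groups with C0 time of day cannot be told apart from surgery.

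Livers collected later after PH had no sham group and were set beside unoperated livers. X28 held 1170, 2169 and 1451 RPKM, 26.1-fold the fitted level of C4 at the same hour of the day (log2 difference 4.71, SE 0.49, adjusted p = 9.05e-12). X28 and C4 came from different periods, and with the period as a term the log2 difference was 3.65 (adjusted p = 1.49e-05). X72 held 841, 764 and 723 RPKM, 9.95-fold the fitted level of C0 (log2 difference 3.31, SE 0.40, adjusted p = 1.82e-10). Both groups lay wholly above the unoperated livers. X44 replicates spread widely, at 1931, 1819 and 361 RPKM, and without replicate 3 the X44 level also passed against X20 (log2 difference 1.71, adjusted p = 0.00263; with it 0.92, adjusted p = 0.102). At 1 week Apoa4 was at 171, 229 and 142 RPKM (log2 difference 1.19, SE 0.40, adjusted p = 0.016). This call was lost without C0 replicates 7 to 9 (adjusted p = 0.105) or X1W replicate 2 (0.0981), under the replicate block (log2 difference 0.76, adjusted p = 0.184), with the set of 3 numbers as a term (0.75, 0.180) and with the period as a term (0.71, 0.205). At 4 weeks X4W held 40.7 and 100.3 RPKM and C4W 50 and 51.3 RPKM, and the groups overlapped.

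Apoc2, the activator of lipoprotein lipase, rose after PH from 10 h on. S10 livers held 149, 125 and 143 RPKM and X10 livers 171 to 332 (median 236) RPKM (log2 difference 0.83, SE 0.16, adjusted p = 0.000289). S20 livers held 141, 184 and 175 RPKM and X20 livers 222 to 319.7 (median 310.2) RPKM (log2 difference 0.81, SE 0.16, adjusted p = 0.000562). S48 livers held 163, 168 and 148 RPKM and X48 livers 399.8, 378, 328, 428 and 471 RPKM, 2.49-fold higher (log2 difference 1.32, SE 0.17, adjusted p = 1.87e-09). At each of these times no PH liver overlapped a sham liver, and no alternative ended these 3 calls.

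Before 10 h the Apoc2 levels of PH and sham livers were alike in range. X4 held 98.9, 109 and 128 RPKM and S4 110.2, 111, 112, 105 and 123 RPKM (log2 difference -0.01). The difference grew by 0.84 from 4 h to 10 h (SE 0.24, limma adjusted p = 0.0257), a call that was lost when any of S10 replicate 2 or 3, X4 replicate 4 or 5 or X10 replicate 1 was left out (0.0538 to 0.0855), with the period as a term (0.0912) and within the second period (0.135). Sham livers at 10 h, 20 h and 48 h differed from C0 by -0.18, 0.08 and 0.02 (log2), and none of these passed. At 72 h Apoc2 reached 649, 425 and 448 RPKM, 3.17-fold the fitted C0 level (log2 difference 1.66, SE 0.15, adjusted p = 2.65e-14). It was at 205, 229.7 and 227 RPKM at 1 week, with all 3 livers above every C0 liver (log2 difference 0.49, SE 0.15, adjusted p = 0.0109). This missed the size of 0.5, and passed without C0 replicates 7 to 9 (log2 difference 0.54, adjusted p = 0.0112).

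The gene next to Apoc2 that shares exon sequence with it, Apoc4, did not pass in any comparison of PH with sham (log2 differences -0.24 to 0.20 at 1 h to 48 h). Its mean log2 RPKM was 9.68 in C0 and 9.28 in X72, against 7.29 and 8.96 for Apoc2. Reads of Apoc4 over the shared exon could thus weigh more in the Apoc2 levels and folds than the shared length does. Their part was not tested.

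**Figure D3:**
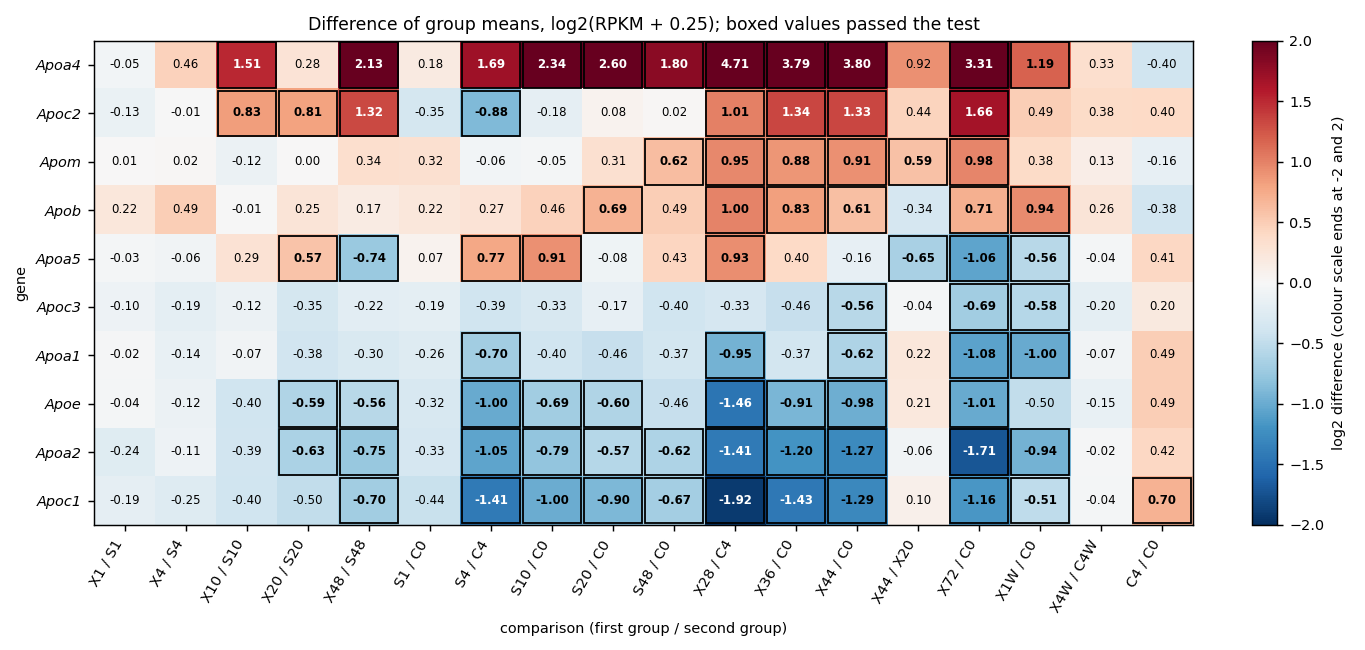
Log2 difference of group means of the 10 members in 18 comparisons of pairs of groups (columns) with the value in each cell, on log2(RPKM + 0.25). Boxed values passed the test. Apoa4 and Apoc2 are higher and Apoa2, Apoe and Apoc1 lower in boxed cells of PH against sham at 48 h.

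Apoa5, whose protein raises lipase activity, turned from higher to lower after PH. S20 livers held 256, 391 and 256 RPKM and X20 livers 379 to 528 (median 428) RPKM (log2 difference 0.57, SE 0.17, adjusted p = 0.0205). S48 livers held 525, 408 and 344 RPKM and X48 livers 339, 247, 219.9, 150.5 and 362 RPKM (log2 difference -0.74, SE 0.18, adjusted p = 0.000571). Single livers overlapped at both times. The PH-sham difference was lower at 48 h than at 20 h by 1.31 on the log2 scale (limma log2 difference -1.31, SE 0.25, adjusted p = 6.12e-05), and no alternative ended that call. The 20 h call was lost without S20 replicate 1 (adjusted p = 0.165) or 3 (0.126), with the same median in every library (0.0707), with the length trend removed (0.0522) and within the second period (0.0559), and a fit on the groups alone ended both the 20 h call (0.0699) and the 48 h call (0.0847).

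Sham livers also moved in Apoa5. S4 held 591, 737, 656, 739.9 and 842 RPKM against 398, 416 and 428 RPKM in C4 (log2 difference 0.77, SE 0.18, adjusted p = 0.000186), and X4 held 653, 642 and 742 RPKM. The S4 and X4 livers were all above the C4 livers. Later after PH, X28 held 752, 912 and 710.4 RPKM (log2 difference 0.93, SE 0.20, adjusted p = 0.000134; 1.00 with the period as a term), whereas X72 held 185, 149 and 121 RPKM, below every C0 liver (log2 difference -1.06, SE 0.16, adjusted p = 1.63e-07). X28 was killed at the same hour of the day as C4, and X72 at that of C0.

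Apoc3, which inhibits lipoprotein lipase, varied least. S48 livers held 869, 870.0 and 871 RPKM and X48 livers 744, 691, 726, 799 and 790.1 RPKM, and although the livers did not overlap the difference did not pass (log2 difference -0.22, SE 0.12, adjusted p = 0.147). It was lower than in C0 in X44, X72 and X1W, with X72 at 739, 684 and 707 RPKM (log2 difference -0.69, SE 0.11, adjusted p = 3.69e-07). Without X44 replicate 1 the X44 difference was -0.48 and no longer passed by size, and without X1W replicate 3 the X1W difference was -0.496, again short of the size. With the length trend removed the X1W difference was -0.29, and with the period as a term the X44 difference was -0.49.

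Apoe, the ligand of remnant receptors, and Apoc1, its neighbour on chromosome 7, fell together. S20 livers held 3968, 4259 and 3711 RPKM of Apoe and X20 livers 2270 to 2972 (median 2635) RPKM (log2 difference -0.59, SE 0.13, adjusted p = 0.00147). S48 livers held 4263, 4656 and 4170 RPKM and X48 livers 2485, 3234, 3280, 3240 and 2632 RPKM (log2 difference -0.56, SE 0.14, adjusted p = 0.000548). PH livers were below all sham livers at both times. Without X48 replicate 1 the 48 h difference was -0.499, just short of the size needed.

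For Apoc1, S48 livers held 3268, 3987 and 3338 RPKM and X48 livers 2010, 2076, 2358, 2834 and 1732 RPKM, 1.62-fold lower (log2 difference -0.70, SE 0.17, adjusted p = 0.000576). At 20 h the log2 difference was -0.50 and missed the size by little (adjusted p = 0.0342). It passed with the period as a term (-0.55, adjusted p = 0.00204), with the same median in every library (-0.58, adjusted p = 0.0256), with the length trend removed (-0.53, 0.0155), with the total taken without the 50 most abundant genes (-0.50, 0.0283) and without X20 replicate 2, 3 or 5 (-0.52, -0.55 and -0.50).

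Both were also lower in sham livers than in the unoperated C0 and C4 livers. The unoperated C4W livers were closer to sham. Apoc1 had a mean log2 RPKM of 11.82 in C4W, 12.01 in S1, 11.74 in S4 and 11.78 in S48. For Apoe these means were 12.36, 12.23, 12.04 and 12.09. Apoc1 was at 3745, 3294, 3276, 3430 and 3388 RPKM in S4 against 9738, 10006 and 7726 RPKM in C4 (log2 difference -1.41, SE 0.17, adjusted p = 1.73e-10), and Apoe at 3734, 3847, 4076, 4695 and 4859 RPKM against 8774, 8891 and 7738 RPKM (log2 difference -1.0, SE 0.14, adjusted p = 5.19e-09). All S4 livers were below all C4 livers, and these groups did not overlap for 52.5% of all genes. With the length trend removed these differences were -0.88 and -0.76 and passed, while Apoa1 (-0.30) and Apoc2 (-0.42) no longer did. With the period as a term they were -0.57 and -0.51 and passed. Of well-expressed genes with up to 1 kb of exon, 501 in number, the median difference of S4 against C4 was -0.53 (log2), against -0.01 for those over 3 kb. The cause of this was not tested. By 72 h Apoc1 was at 2211, 2774 and 2603 RPKM and Apoe at 2600, 3242 and 3155 RPKM, with log2 differences from C0 of -1.16 and -1.01 that passed. At 1 week the Apoc1 call (log2 difference -0.51) was lost without C0 replicates 7 to 9 (-0.22, adjusted p = 0.185), without any of C0 replicates 1, 7, 8 and 9 or X1W replicate 3 (-0.50 to -0.42), fell short with the period as a term (-0.28, 0.0996) and turned to 0.0044 (0.986) with the length trend removed.

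Apoa2 and Apoa1, the main proteins of high density lipoproteins, differed in size of change. S20 livers held 6767, 7090 and 6175 RPKM of Apoa2 and X20 livers 3708 to 4802 (median 4356) RPKM (log2 difference -0.63, SE 0.15, adjusted p = 0.00293). S48 livers held 5999, 7093 and 6329 RPKM and X48 livers 3616, 3555, 4671, 3971 and 3442 RPKM (log2 difference -0.75, SE 0.15, adjusted p = 5.57e-05). PH livers were below all sham livers at both times, and no alternative ended these calls. X72 livers held 2785, 3068 and 3244 RPKM, the lowest group mean of Apoa2 (log2 difference -1.71, SE 0.14, adjusted p = 2.09e-16).

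Apoa1 did not pass in any comparison of PH with sham. X20 livers held 3205 to 4235 (median 3836) RPKM against 4357, 5627 and 4967 RPKM in S20, without overlap (log2 difference -0.38, SE 0.13, adjusted p = 0.0419). The X48 livers, at 3723, 4321, 4430, 4488 and 4561 RPKM, were below the S48 livers, at 4849, 5075 and 6006 RPKM (log2 difference -0.30, SE 0.14, adjusted p = 0.0654). This 48 h difference passed when all libraries were given 1 common median (-0.75, adjusted p = 0.000132) and with the length trend removed (-0.52, 0.00135). Apoa1 fell in X72, to 3630, 3112 and 2984 RPKM (log2 difference -1.08, SE 0.12, adjusted p = 5.39e-11), and in X1W, to 3546, 3577 and 3094 RPKM (log2 difference -1.0, SE 0.12, adjusted p = 6.76e-09). In C4W it was at 4124 and 4376 RPKM, also below every C0 liver.

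Apob and Apom did not pass in any comparison of PH with sham. Apob, the structural protein of very low density lipoproteins, was at 396, 375 and 326 RPKM in S48 and 446, 416, 441, 337 and 421 RPKM in X48 (log2 difference 0.17, SE 0.17, adjusted p = 0.456). The 2 groups overlapped. At 4 h the X4 livers (370.2, 320.2 and 328 RPKM) lay above the S4 livers (229, 244, 257, 208 and 271 RPKM), with a log2 difference of 0.49 that fell short of 0.5 (adjusted p = 0.0420) and passed with the total taken without the 50 most abundant genes (0.52, 0.0345), with the same median in every library (0.54, 0.0138), with the replicate number, its set or the period as a term (0.52, 0.52 and 0.50) and without S4 replicate 5 (0.54, 0.0343). With the length trend removed, within the second period or on these groups alone, Apob did not pass at 4 h. The slopes on exon length were 0.000298 to 0.00334 in X4 and -0.0830 to -0.0111 in S4. Against unoperated livers Apob was higher in X28, X36, X44, X72 and X1W (log2 differences 0.61 to 1.00). Apob has the longest transcript of the members, and with the length trend removed these differences were 0.47 in X28, 0.35 in X36, 0.09 in X44, 0.15 in X72 and 0.43 in X1W, and none passed. With the period as a term it passed in X36 (0.58) and X1W (0.68) but not in X28 (0.24), X44 (0.35) or X72 (0.46). Apob was also higher in S20 than in C0 (log2 difference 0.69, SE 0.16, adjusted p = 0.000739). Several alternatives ended the S20 call, among them the removal of the length trend (0.30) and the period as a term (0.45). In S48 against C0 the Apob difference was 0.49 and missed the size of 0.5 (adjusted p = 0.0214).

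Apom was higher in the later PH livers than in X20 or C0. X20 held 150.3 to 208 (median 179) RPKM and X44, at the same hour of the day, 256, 259 and 299 RPKM (log2 difference 0.59, SE 0.18, adjusted p = 0.0104). All X44 livers were above all X20 livers, but the call was lost without X44 replicate 3 (adjusted p = 0.0658), with the same median in every library (0.143) and with the length trend removed (0.0522). By size it was also lost under the replicate block (log2 difference 0.48), with the set of 3 numbers (0.48) and with the period as a term (0.47). S48 held 215, 238 and 216 RPKM and X48 309, 279, 289, 247 and 289 RPKM, without overlap (log2 difference 0.34, SE 0.19, adjusted p = 0.138). Among sham livers Apom was higher in S48 than in C0 (log2 difference 0.62, SE 0.17, adjusted p = 0.00748). It did not pass in S1 (0.32), S10 (-0.05) or S20 (0.31) against C0, or in S4 against C4 (-0.06). Several alternatives ended this S48 call, among them the omission of C0 replicates 7 to 9 (0.29, adjusted p = 0.145) and the period as a term (0.16, 0.425). X72 held 304, 270.0 and 284 RPKM, above every C0 liver (log2 difference 0.98, SE 0.17, adjusted p = 2.17e-06), and the call held without C0 replicates 7 to 9 (0.64, adjusted p = 2.74e-05), which were the 3 lowest of the C0 libraries in Apom. In X28 against C4 the Apom call turned from higher to a log2 difference of -0.18 with the period as a term (adjusted p = 0.523).

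More members passed between PH and sham livers at the later times, although group sizes differed between the times. The share of all genes that passed was also highest at 48 h. At 1 h none of the 10 passed, where 0.624% of all genes were higher and 0.026% lower. No member had an unadjusted p under 0.05 there. At 4 h 0 passed and 1 (Apob) had an unadjusted p under 0.05 (26.2% of all genes), with a background of 3.16% higher and 5.48% lower. At 10 h 2 were higher (Apoa4 and Apoc2; background 3.4%) and 0 lower (3.62%). At 20 h 2 were higher (Apoa5 and Apoc2; 4.49%) and 2 lower (Apoa2 and Apoe; 2.61%). At 48 h 2 were higher (Apoa4 and Apoc2), close to the background of 24.5%, and 4 were lower (Apoa2, Apoa5, Apoc1 and Apoe), against a background of 2.69%. The libraries of PH and sham did not overlap for 8 members at 48 h, against 45.9% of all genes. X48 and S48 came from the same period. The median log2 difference at 48 h was -0.26 over the members and 0.27 over all genes, and 8 members passed once all libraries had been given 1 common median, where 21.6% of all genes did.

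For the change of the PH-sham difference between times, 1 member passed between 4 h and 10 h (Apoc2; background 3.73% of all genes in either direction), 0 between 10 h and 20 h (0.104%; 1, Apoa4, at an unadjusted p under 0.05, as were 9.39% of genes) and 2 between 20 h and 48 h (Apoa4 and Apoa5; 13.2%).

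Of the sham groups against unoperated livers, S1 had 0 members that passed and 7 with an unadjusted p under 0.05, as were 37.1% of genes (2.44% of genes higher, 5.34% lower). S4 against C4 had 2 higher (Apoa4 and Apoa5; background 12.2%) and 5 lower (Apoa1, Apoa2, Apoc1, Apoc2 and Apoe; 31%). S10 had 2 higher (17.9%) and 3 lower (11.2%). S20 had 2 higher (7.85%) and 3 lower (4.29%), and S48 had 2 higher (3.83%) and 2 lower (5.05%). In S10, S20 and S48 Apoa4 was among the higher and Apoa2 and Apoc1 among the lower members. Without C0 replicates 7 to 9, 2 members passed in S20 (Apoa4 and Apoc1; 8.76% of genes) and 2 in S48 (Apoa4 and Apoa2; 6.12%). With the period as a term, 3 passed in S20 (8.41%) and 1, Apoa4, in S48 (5.69%).

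Of the later PH groups, X28 against C4 had 5 higher (Apoa4, Apoa5, Apob, Apoc2 and Apom; background 14.4%) and 4 lower (18.3%). X36 had 4 higher than C0 (25.7%) and 3 lower (9.29%), and X44 had 4 higher (30.8%) and 5 lower (8.42%). With the period as a term Apoa1, Apob, Apoc3 and Apom no longer passed in X44. Without C0 replicates 7 to 9, Apoa1 (-0.45) and Apob (0.36) no longer passed in X44. X36 and X44 were killed at another hour of the day than C0, which cannot be told apart from PH in these counts or in their Apoc3, Apob and Apom calls. X72 had 4 higher (26.6%) and 6 lower (6.59%), so that all 10 members passed there. The 6 lower ones were Apoa1, Apoa2, Apoa5, Apoc1, Apoc3 and Apoe. Without C0 replicates 7 to 9, Apob (0.47) no longer passed in X72, which left 9 members. X1W had 2 higher (12.4%) and 5 lower (4.48%). The slopes on exon length of the X1W libraries were 0.0628 to 0.161, and with the trend removed Apoa2 (-0.43), Apoc1, Apoc3 (-0.29) and Apob (0.43) no longer passed there, while Apoc2 (0.80) and Apom (0.66) did. Most of these comparisons share the C0 livers, and they are not independent of each other.

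X44 against X20, at the same hour of the day, had 1 higher (Apom; 12.9%) and 1 lower (Apoa5; 3.11%). X4W against C4W had 0 (0.0325% higher and 0.0325% lower), with 2 livers in each group, and 0 members had an unadjusted p under 0.05 in this comparison. C4 against C0 had 1 higher (Apoc1; 5.81%) and 0 lower (2.08%). Without C0 replicates 7 to 9, 6 members passed in C4 against C0 (17.3% of genes), with Apoa1, Apoa2, Apoc1 and Apoe higher and Apob and Apom lower, but no C0 liver of the third period, to which C4 belongs, is then left if the numbers follow the periods, and period and hour cannot be told apart. With the period as a term 1 member, Apom, was higher (0.51; 1.3% of genes).

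Summed over the 10 members, apolipoprotein mRNA took a smaller share of the liver's mRNA after PH than after sham surgery at 20 h and 48 h, and a smaller one in both than in C0 and C4. The sum was 5.03% ± 0.628 of the summed RPKM (SD, n = 9) in C0 and 6.58% ± 0.451 (n = 3) in C4. It was 3.58% ± 0.244 (n = 3) in S10 and 3.36% ± 0.369 (n = 6) in X10, 3.65% ± 0.203 (n = 3) in S20 and 2.89% ± 0.231 (n = 6) in X20, and 3.92% ± 0.242 (n = 3) in S48 and 3.17% ± 0.178 (n = 5) in X48. The ranges of PH and sham livers overlapped at 10 h but not at 20 h (2.52% to 3.25% against 3.51% to 3.88%) or 48 h (2.98% to 3.43% against 3.67% to 4.16%). The lowest group mean was 2.87% ± 0.121 (n = 3) in X72, 57.1% of that in C0, and it was 3.64% ± 0.123 (n = 2) in X4W. The unoperated C4W livers, at 3.70% ± 0.103 (n = 2), lay below every C0 liver and within the range of the sham livers. The part of the length dependence of C0 and C4 in these sums was not tested.

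The make-up of the sum shifted too. Apoa2 made up 32.3% of it in C0 and 20.7% in X72. Apoa4 made up 0.264% in C0, 8.24% in X10, 7.99% in X28 and 5.29% in X72. Apoc2 went from 0.511% in C0 to 3.46% in X72.

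**Figure D4:**
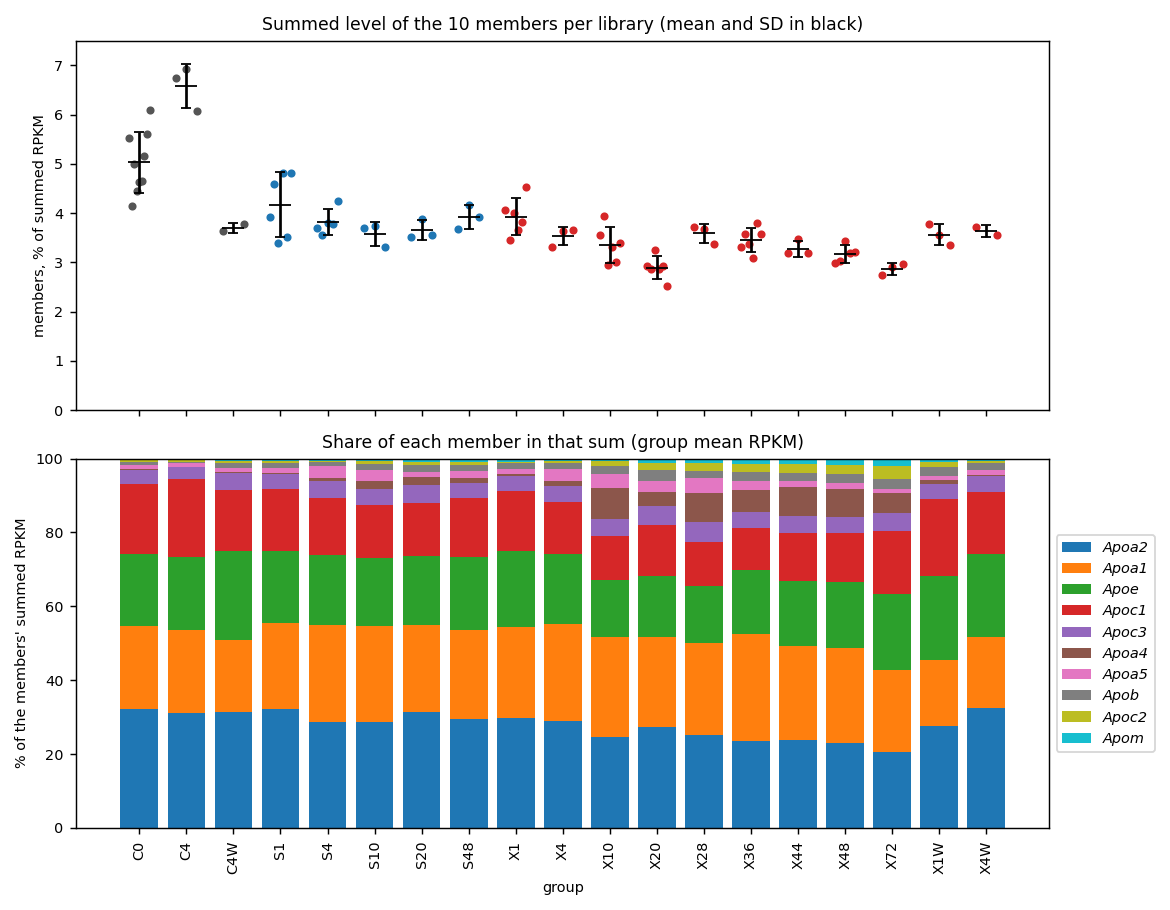
Upper panel: sum of the 10 members in each library as % of summed RPKM (points), with mean and SD of each group (black). Lower panel: share of each member in that sum from group means, which shows Apoa4 at 0.264% in C0 and 8.24% in X10.

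Members of a chromosomal cluster did not all move alike. Over the 19 group means, the 9 pairs within a cluster had Pearson r between -0.61 and 0.97 with a median of 0.23, and the 36 other pairs had r between -0.88 and 0.93 with a median of -0.23. Apoc1 and Apoe had the highest r (0.97), whereas their neighbour Apoc2 had r of -0.50 with Apoc1 and -0.61 with Apoe. Apoa2, on another chromosome, had r of 0.93 with Apoe. In the chromosome 9 cluster, Apoa1 and Apoc3 had r of 0.83, and Apoa4 had r of -0.37 with Apoa1. These are descriptions over group means that share control livers and depth, and they carry no test.

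**Figure D5:**
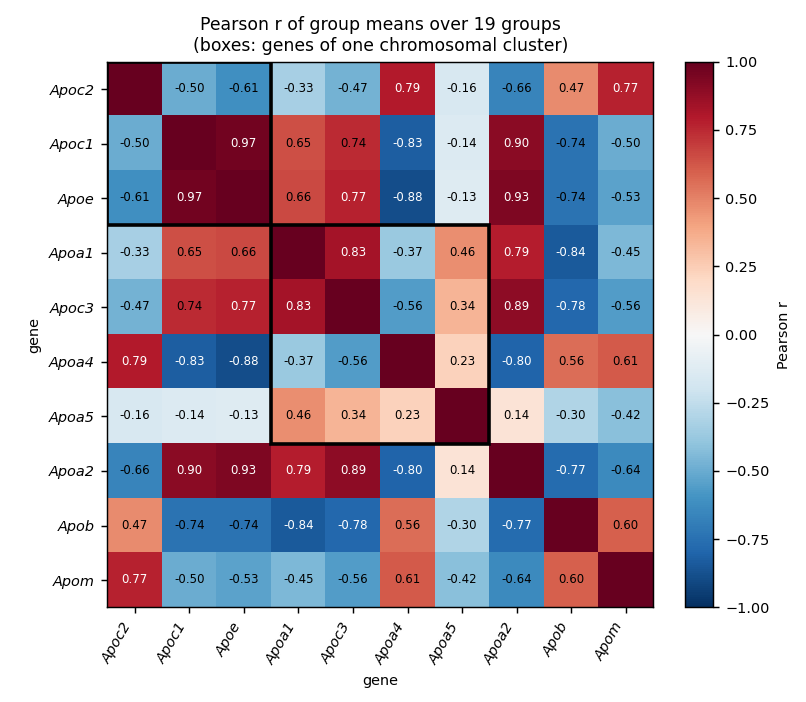
Pearson r of the 19 group means for each pair of members, ordered by chromosomal cluster (black boxes) and then the other 3 genes. Apoc1 and Apoe are alike (0.97), and Apoc2 of the same cluster has r of -0.50 and -0.61 with them.

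Among 9764 genes of mean log2 RPKM over 0, the genes whose group means were most like those of Apoa4 were Mmp14 (r = 0.96), C4bp (0.96) and Abhd2 (0.95). For Apoc2 they were Aprt, Ifi27l2b and Ctps2 (0.96 each), for Apoe Apoc1, 0610011F06Rik and Proc (0.97 to 0.96), for Apoc1 Apoe, Ttr and 2410004N09Rik (0.97 to 0.95) and for Apoa2 S100a1, Proc and Apoe (0.94 to 0.93). Proc encodes the anticoagulant protein C and Ttr the carrier transthyretin, both secreted by hepatocytes. Apoa1 was nearest to Tpt1, Tpt1-ps3 and Apoc3 (0.86 to 0.83), Apoc3 to Apoa2, Zfp575 and Ndufa1 (0.89 to 0.88) and Apoa5 to Nlrp12, Prr3 and Eif1 (0.89 to 0.84). Apob was nearest to Itfg1, Lpp and Ccny (0.91 to 0.90) and Apom to Bsg, Psap and Galns (0.95 to 0.93). In all, 3 of the 10 members (Apoa1, Apoa2 and Apoc3) had 1 other member among these nearest genes, and Apoc1 and Apoe had each other.

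The other genes of lipoprotein metabolism were taken as lists. Of all genes, 3.4% were higher and 3.62% lower after PH than after sham at 10 h, 4.49% and 2.61% at 20 h, and 24.5% and 2.69% at 48 h. Of 13 detected other apolipoproteins and lipoprotein-bound proteins, 0 were higher and 3 lower after PH than after sham at 10 h, 0 and 1 at 20 h, and 0 and 2 at 48 h. Their median log2 difference at 48 h was -0.23, against 0.27 for all genes. The largest falls were those of Apol9b, a member of the apolipoprotein L family (log2 difference -1.55, SE 0.26, adjusted p = 2.7e-05 at 10 h), and of Saa4, a constitutive serum amyloid A (-1.41, SE 0.29, 0.000578 at 10 h). Apol9b has a close copy, Apol9a, with which it may share reads. Saa1 and Saa2, acute-phase apolipoproteins of high density lipoproteins, did not pass between PH and sham but were higher than in C0 at 72 h by 5.66 and 6.86 (log2).

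Of 16 detected genes listed for lipoprotein assembly and secretion, 2 were higher and 2 lower at 10 h, 0 and 1 at 20 h, and 2 and 0 at 48 h. Plin2, a coat protein of lipid droplets, was higher at 10 h (log2 difference 1.80, SE 0.28, adjusted p = 5.34e-06), and Surf4, a cargo receptor of lipoprotein export, at 48 h (0.75, SE 0.12, 1.15e-06). At 4 h Surf4 was instead lower after PH than after sham (-0.60, SE 0.12, adjusted p = 0.000322), and Plin2 was higher (1.34, SE 0.29, 0.000535). Apobec1, the editing enzyme of Apob mRNA, was lower at 10 h (-0.69, SE 0.23, 0.0383). The 1 lower gene at 20 h was Acat2 (-0.68, SE 0.21, 0.02), a thiolase, which the list holds although it is not a gene of lipoprotein assembly.

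Of 10 detected lipases, transfer proteins and their inhibitors, none passed at 10 h, 1 was higher and 3 lower at 20 h, and 1 higher and 3 lower at 48 h. Angptl4, an inhibitor of lipoprotein lipase, was higher at 20 h (log2 difference 1.48, SE 0.39, adjusted p = 0.00739), and Lipg, endothelial lipase, at 48 h (1.11, SE 0.33, 0.00418). Lipg was near the detection threshold there, with a mean log2 RPKM of -1.30 in S48 and 0.21 in X48. It was also higher at 1 h (1.62, SE 0.26, adjusted p = 5.86e-05). Pltp, the phospholipid transfer protein, was lower at 48 h (-1.31, SE 0.38, 0.00361) and Angptl6 at 20 h (-0.87, SE 0.19, 0.00149). Against C0 the median of the list was -0.61 in X72, where all genes had 0.21, with 2 higher (26.6% of all genes) and 5 lower (6.59%). Sham livers were low in this list too. Against C0 its median was -0.13 in S1, -0.89 in S10, -0.76 in S20 and -0.55 in S48. All genes had -0.12, 0.07, 0.04 and -0.03 there. In S4 against C4 it was -0.85, where all genes had -0.22.

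Of 14 lipoprotein receptors and lipid exporters, 1 was higher and 1 lower at 10 h, 2 and 0 at 20 h, and 1 and 2 at 48 h. Cd36, a fatty acid and lipoprotein receptor, was higher at 48 h (log2 difference 1.22, SE 0.33, adjusted p = 0.00181) and Sdc1, a remnant receptor, at 10 h (0.83, SE 0.16, 0.000294). Abcg8, a sterol exporter, was lower at 48 h (-1.08, SE 0.25, adjusted p = 0.000295). In X36 9 were higher than in C0 (25.7% of all genes) and 0 lower (9.29%), with a median of 0.76 against 0.16 for all genes. X36 was killed at another hour of the day than C0, which cannot be told apart from PH here.

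Of 20 transcription factors known to act on apolipoprotein genes, 1 was higher and 2 lower at 10 h, 0 and 2 at 20 h, and 1 and 2 at 48 h. Ppargc1a, a coactivator of fasting metabolism, was higher at 10 h (log2 difference 1.45, SE 0.28, adjusted p = 0.000192) and Srebf2, which drives sterol synthesis, at 48 h (0.58, SE 0.21, 0.0221). Srebf1, which drives fatty acid synthesis, was lower at 20 h (-1.45, SE 0.38, adjusted p = 0.00688).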

How the data were processed

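Livers of 80 mice in 19 groups were measured by stranded poly(A) RNA sequencing. Per the study's methods and processing notes, the authors trimmed and filtered reads, aligned them to mm9 with TopHat2 2.0.13, Bowtie2 and SAMtools 0.1.19, and counted them with featureCounts over Ensembl genes, with a read of several positions split among them. The deposited values are log2 RPKM, which the authors computed from these counts. Of 84 columns of values, 4 that carry the S4 name beyond the 5 labelled S4 samples were not used. The S4 columns were matched by number, and this match is uncertain. Of 87 labelled samples 7, X4 replicates 1 to 3 among them, are not analysed here.

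Genes over -1.5 log2 RPKM in at least 1 library were fitted with limma 3.58.1 (R 4.3.3, variance trend) on log2(RPKM + 0.25), with all groups in 1 fit. The fit was tested on simulated data. Adjusted p-values are Benjamini-Hochberg over all detected genes of a comparison. Depth was estimated from steps between low values, taken as whole reads within a tolerance of 0.05, in libraries where at least 70% of them were whole. The precision of a value is set mainly by the number of livers. All 10 members are described. In each list of other genes, the text names the 2 largest rises and falls among those that passed in PH against sham at 10 h, 20 h or 48 h, Saa1, Saa2 and Apoc4 excepted, which were added after their values were seen, and the 3 genes nearest to each member by Pearson r. Of the genes this rule names, 2 are not reported here. Members and lists were chosen with earlier results of these data known. Alternatives were other pseudocounts, filters, scalings and variance priors, the replicate number as a block or in sets of 3, fits on the compared groups alone and leaving out each library. The removal of the length trend, the omission of C0 replicates 7 to 9, the period as a term and the comparison of PH with sham within the second period (4 h, 10 h and 20 h) were added after seeing the data.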

Additional observations from a re-analysis of the deposited data

Results flagged for a closer look

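In 6 of 80 sets of a member and a group of 4 to 10 livers, 1 library stood far from the others by Dixon's ratio, and chance gives about 5% of sets. Apoa1 was lowest in X48 replicate 1 (log2 RPKM 11.86), and Apob in X48 replicate 4 (8.39). Apoc2 was lowest in X20 replicate 2 (7.79) and highest in X36 replicate 2 (9.28). Apoc3 was lowest in C0 replicate 2 (9.87) and in X20 replicate 6 (9.36).

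The difference between PH and sham changed between times for 3 members by the limma interaction term. The Apoa4 difference was larger at 48 h than at 20 h by 1.86 (log2), the Apoa5 difference was lower at 48 h than at 20 h (-1.31), and the Apoc2 difference was larger at 10 h than at 4 h by 0.84.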

How the results depend on the processing

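Of 81 pairs of a member and a comparison that passed, 46 passed under every alternative run and 35 were lost under at least 1. Both other pseudocounts, the filter on 3 libraries, the fit without a variance trend and the robust fit lost 0 calls, the fit without a filter lost 2, the total without the 50 most abundant genes 1, the same median in every library 8, the fits on the compared groups alone 10, the removal of the length trend 18, the omission of C0 replicates 7 to 9 lost 10, the period as a term 20 and the comparisons within the second period 3. The replicate block and the set of 3 replicate numbers as a term lost 15 each. Same-numbered PH and sham livers deviated together with correlations of -0.298 to 0.367, and no source says that a single number marks a pair. The set of 3 numbers does not follow the periods for C4, S10, S20, C4W, X4W and X48. Under the replicate block, and likewise with the set as a term, 1 member passed in X4 against S4, 2 in S20, 1 in S48 and 5 in X44 against C0, 1 in X44 against X20 and 6 in C4 against C0. In X4 against S4, 1 member also passed with the same median in every library or with the total without the 50 most abundant genes. With the length trend removed, 1 passed in S1, 3 in S20, 2 in S48 and 0 in C4 against C0, 1 in X44 against X20 and 1 in the change from 20 h to 48 h, and Apoc1 in X1W reversed to 0.0044. With the period as a term, 1 passed in X4 against S4, 3 in S20, 1 in S48 and 5 in X44 against C0, 1 in X44 against X20 and 0 in the change from 4 h to 10 h, and Apom in X28 reversed to -0.18. Within the second period 1 passed in X10 against S10 and 0 in the change from 4 h to 10 h. Without C0 replicates 7 to 9, 2 passed in S20, 2 in S48 and 6 in C4 against C0. On the compared groups alone, 1 passed in X10 against S10, 3 in S20, 2 in S48 and 0 in C4 against C0, and 0 in the change from 4 h to 10 h. Without a filter 0 passed in the change from 4 h to 10 h and 1 in that from 20 h to 48 h, where the same median also left 1. Leaving out 1 library gave 1 to 3 passing members in C4 against C0, 0 to 1 in S1 against C0, 0 to 1 in X4 against S4, 1 to 2 in X10 against S10, 1 to 3 in X44 against X20, 0 to 1 in the change from 4 h to 10 h and 1 to 2 in that from 20 h to 48 h. The summed level in X72 was 45.6% of that in C0 with the total without the 50 most abundant genes, against 57.1%. The cause of these changes was not tested. The median over all genes differed from 0 by over 0.1 (log2) in X48 against S48 (0.27), S4 against C4 (-0.22), X44 (0.23), X72 (0.21), X36 (0.16), X1W (0.12) and S1 (-0.12) against C0, and X44 against X20 (0.10). For the change of the PH-sham difference from 20 h to 48 h this median was 0.21.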
